A study of Mus musculus with 6 samples.

Results

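Serpins are protease inhibitors that work by suicide: the target protease cuts an exposed reactive loop of the serpin, the loop inserts into the body of the inhibitor, and the protease is dragged along and trapped. A few members have lost this activity and act as chaperones, hormone carriers or signals. The family is divided into clades named by letter. Clade A holds secreted, mostly plasma-type inhibitors such as alpha-1-antitrypsin and antichymotrypsin. Clade B holds intracellular inhibitors, many of them made by keratinocytes and leukocytes. The serpin genes were taken as every row of the deposited table whose gene symbol begins with Serpin, a clade letter from a to i and a digit. This gave 56 of 18939 genes, of which 21 belong to clade A, 25 to clade B, 3 to clade E, 2 to clade F and 1 each to clades C, D, G, H and I.

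The values come from mouse skin in a model that the series title calls MC903-OVA. MC903 is the vitamin D analogue calcipotriol, which produces a dermatitis when painted on mouse skin, and OVA is the antigen ovalbumin. The 3 libraries called CKO (replicates 1, 2 and 5) carry a genotype label of VAMP7 loss in basophils, and the 3 titled FLOX (replicates 2, 3 and 5) carry a wild-type label. VAMP7 is a membrane-fusion SNARE of vesicles, and the comparison addresses how the skin differs when basophils lack it. The sources used here do not give the Cre driver, the strain, the dosing, the age of the mice or whether each library is 1 animal. The table gives FPKM, a level scaled to gene length and library size, so levels of different genes can be set side by side.

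FPKM sums ran from 556412 to 594987 per library. From the steps between low values of short genes, 1 FPKM over 1 kilobase would correspond to about 17.9 to 18.9 fragments per library, an estimate that rests on GENCODE transcript lengths since the authors' annotation is not stated. The keratinocyte, fibroblast and immune markers of skin were all detected. Vamp7 itself measured 19.71, 19.11 and 19.73 FPKM in the CKO libraries against 20.4, 21.51 and 20.77 FPKM in the FLOX libraries (limma adjusted p = 0.475). Many skin cells other than basophils express it, so whole skin is a weak check of the label. CKO replicate 2 stood farthest out on the first principal component.

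Fold changes below are CKO minus FLOX on log2(FPKM + 1), with the standard error, and were tested with limma over the 12994 genes that reached 1 FPKM in at least 3 libraries. In whole tissue, fewer cells of a type and less RNA per cell cannot be told apart. Of the 56 serpin genes, 32 reached that level and 24 did not, and none of the 32 owed its place to 1 group alone. One serpin gene, Serpinb7, was higher in CKO skin at an adjusted p below the threshold of 0.05 and 31 did not pass. Over all tested genes 0.954% were called, 0.354% higher and 0.6% lower. Before adjustment, p was under 0.05 for 6 serpin genes, 5 of them higher and 1 lower in CKO skin, where the shares of all tested genes were 12.6% and 8.94%. The values of the 2 groups did not overlap in 7 serpin genes, all with CKO higher, which is 21.9% of those tested. Over all tested genes 27% were apart, 15.5% with CKO higher and 11.4% with CKO lower. The median log2 fold change of the 32 was 0.13 (0.088 to 0.25 when single libraries were left out), beside 0.03 for all tested genes, and 22 of the 32, or 68.8%, were positive, beside 56.1% of all tested genes. Summed over the family, FPKM was 2135 ± 187 in CKO and 1970 ± 115 in FLOX skin (SD, n = 3 each), and the ranges overlapped.

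The promoter windows of 4 genes are printed: Serpinb7 passed the test, Serpinb12 had the largest positive log2 fold change, and Serpina3g and Serpina3f had the lowest. The windows are RefSeq sequence of assembly GRCm38.p6, all on the plus strand, from 250 bases before to 50 after the annotated start. They cover chr1:107422439-107422738 for Serpinb7, chr1:106934199-106934498 for the upstream start of Serpinb12, chr12:104235897-104236196 for Serpina3g and chr12:104214294-104214593 for the upstream start of Serpina3f. Capitals mark matches to TGANTCA, the AP-1 motif, to TTCNNNGAA, the STAT motif, and to the STAT motif with a spacer longer by 1 base.
Serpinb7: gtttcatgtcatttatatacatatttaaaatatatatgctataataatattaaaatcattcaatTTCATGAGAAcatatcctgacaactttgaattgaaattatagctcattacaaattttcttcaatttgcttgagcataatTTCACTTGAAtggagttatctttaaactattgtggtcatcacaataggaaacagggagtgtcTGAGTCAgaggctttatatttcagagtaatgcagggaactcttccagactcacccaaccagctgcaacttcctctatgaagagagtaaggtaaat
Serpinb12: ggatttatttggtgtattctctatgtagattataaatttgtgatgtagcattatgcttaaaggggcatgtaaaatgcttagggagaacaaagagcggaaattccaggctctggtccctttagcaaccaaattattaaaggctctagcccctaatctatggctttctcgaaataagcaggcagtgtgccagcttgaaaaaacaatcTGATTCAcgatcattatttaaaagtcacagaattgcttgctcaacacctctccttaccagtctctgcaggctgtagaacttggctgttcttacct
Serpina3g: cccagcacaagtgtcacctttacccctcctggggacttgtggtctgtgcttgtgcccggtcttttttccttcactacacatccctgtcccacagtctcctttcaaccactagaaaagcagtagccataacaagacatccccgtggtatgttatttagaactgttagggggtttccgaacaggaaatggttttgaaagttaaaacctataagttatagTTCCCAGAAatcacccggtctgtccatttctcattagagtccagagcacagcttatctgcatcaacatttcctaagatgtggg
Serpina3f: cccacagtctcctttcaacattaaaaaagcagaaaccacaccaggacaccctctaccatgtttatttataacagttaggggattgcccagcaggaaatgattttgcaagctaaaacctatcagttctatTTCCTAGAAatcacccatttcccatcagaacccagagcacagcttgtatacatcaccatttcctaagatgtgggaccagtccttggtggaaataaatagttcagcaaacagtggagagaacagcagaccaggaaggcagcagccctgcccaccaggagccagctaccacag
Serpinb7 and Serpinb12 each held an AP-1 match that begins 45 bases before the annotated start, TGAGTCA in Serpinb7 and TGATTCA in Serpinb12. The capital stretches of Serpina3g and Serpina3f, TTCCCAGAA and TTCCTAGAA, lie 33 and 121 bases before the starts.

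A window was found for 47 of the 56 genes, 55 windows in all, and both strands were searched. AP-1 matches stood in 7 of the 11 genes with a window in the cluster that runs from Serpinb5 to Serpinb8: Serpinb5, Serpinb12, Serpinb11, Serpinb7, Serpinb2, Serpinb10 and Serpinb8. None of the 7 Serpina3 genes with a window held one, and outside the cluster matches stood in Serpina1a, Serpina1b, Serpina1c and Serpina1d. The motif occurs in 21.8% of the 55 serpin windows and in 7.81% of 32851 promoter windows of the same length. The STAT motif TTCNNNGAA stood in 3 of 7 Serpina3 genes with a window, Serpina3f, Serpina3g and Serpina3i. It was not particular to them and stood in 8 of the 47 serpin genes with a window. The others were Serpinb2, Serpina1f, Serpina11, Serpinb9c and Serpinb6a. By window it was in 20% of the serpin windows against 8.3% of all windows. The STAT motif with the longer spacer had 2 matches in the Serpinb7 window. It also stood in Serpina12, Serpina5, Serpina3i, Serpinb1b and Serpinb6a. By window it was in 10.9% of the serpin windows and 6.95% of all windows. Windows of recent gene copies share sequence, and of the genes with an AP-1 match only Serpinb7 passed the expression test, so these matches are a description of the letters.

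**Figure D1:**
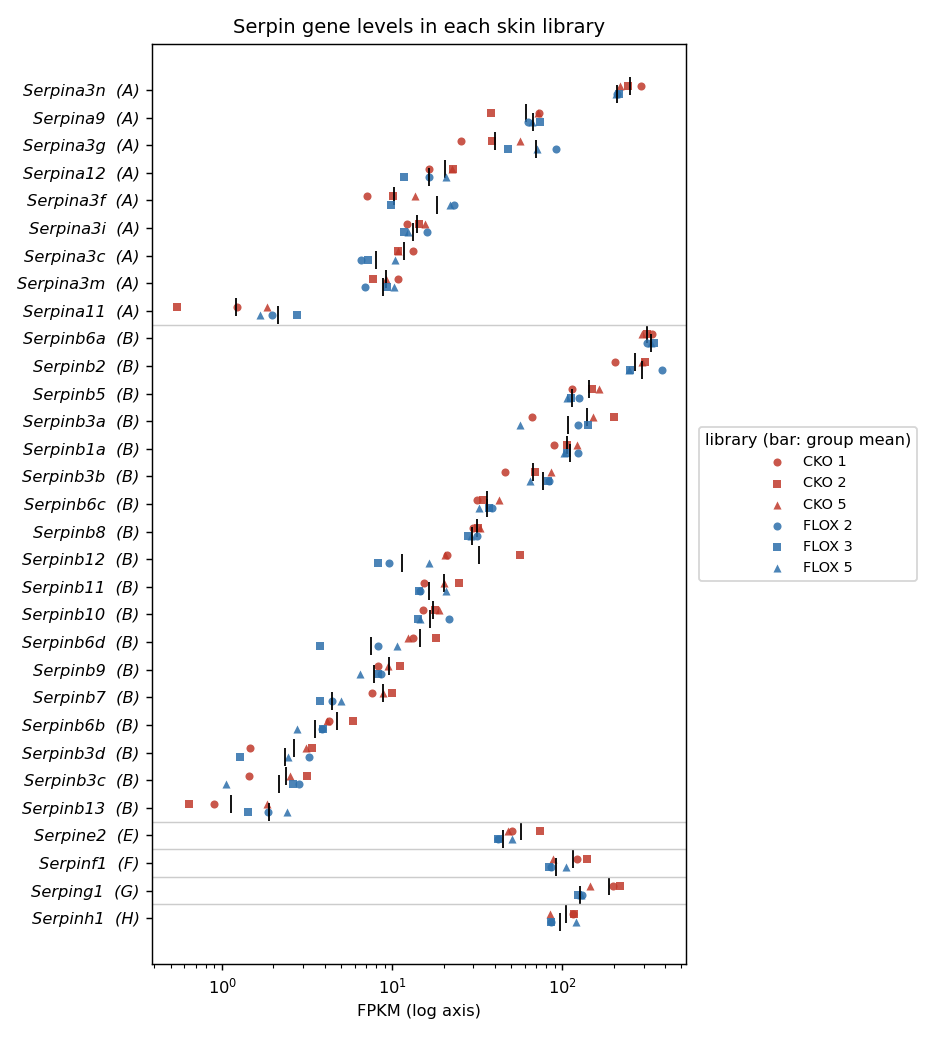
FPKM (log axis) of 31 of the 32 tested serpin genes in each of the 6 libraries, by clade and level; red points are CKO, blue points FLOX, and vertical bars the group means. Serpinb6a, Serpinb2 and Serpina3n lie highest, and the red and blue points are apart in 7 genes.

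By level, 9 of the 56 genes averaged at least 100 FPKM and together made 75.9% of the family's summed FPKM. Clade B contributed 58.4% of that sum and clade A 20.4%. Serpinb6a, an intracellular inhibitor of cathepsin G and trypsin-like proteases, was highest, with 338.31, 314.16 and 294.34 FPKM in the CKO libraries against 315.25, 344.41 and 331.88 FPKM in the FLOX libraries. Its groups overlapped, and the log2 fold change was -0.07 (SE 0.09, limma adjusted p = 0.707). Serpinb2, or plasminogen activator inhibitor 2, measured 204.23, 305.46 and 295.22 FPKM in the CKO libraries against 385.51, 250.26 and 247.95 FPKM in the FLOX libraries. Its highest value was a FLOX library and its lowest a CKO library, with the other 4 libraries between them. The log2 fold change was -0.13 (SE 0.21, limma adjusted p = 0.789), and it turned to 0.06 without CKO replicate 1 and 0.08 without FLOX replicate 2.

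Several plasma serpins were near absent. All 6 Serpina1 genes, the mouse alpha-1-antitrypsin copies, stayed below 1 FPKM in every library, as did Serpinc1 (antithrombin), Serpind1 (heparin cofactor II), Serpinf2 (alpha-2-antiplasmin) and Serpina6 (corticosteroid-binding globulin). Of the hepatocyte markers, 9 were in the table and 1 reached the filter, Cyp2e1, which fat cells also express. The albumin gene Alb ranged from 0.29 to 1.71 FPKM. Of the 24 serpin genes below the filter, 22 had no value of 1 FPKM, and the highest value was 1.28 FPKM, in Serpina3b. Serpinb9c was listed at 0 throughout, and Serpini1, or neuroserpin, stayed between 0.71 and 0.83 FPKM. The low copies of Serpina1, Serpinb9 and Serpinb3 have close relatives whose reads can be shared, so their values are uncertain.

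The difference that passed the test was in Serpinb7 (NCBI Gene ID 116872). Serpinb7, also called megsin, is made in the upper epidermis, and its loss in people causes Nagashima-type palmoplantar keratosis, a thickening of the skin of palms and soles. It measured 7.63, 9.9 and 8.85 FPKM in the CKO libraries against 4.4, 3.78 and 5.02 FPKM in the FLOX libraries. Every CKO library lay above every FLOX library, with means of 8.79 ± 1.14 and 4.4 ± 0.62 FPKM (SD, n = 3 each), about 2-fold. The log2 fold change was 0.86 (SE 0.12) and limma's adjusted p was 0.047. The direction held under 15 of 15 alternatives, with log2 fold changes from 0.55 to 0.98. The call did not: limma's adjusted p was above the threshold in 10 of the 15, including 5 of the 6 fits that left out a library (0.0502 without CKO replicate 1, 0.107 without CKO replicate 2, 0.16 without FLOX replicate 2, 0.0733 without FLOX replicate 3 and 0.0883 without FLOX replicate 5).

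Serpinb12 and Serpinb6d showed the 2 other largest positive differences in clade B, without passing the test. Serpinb12, an inhibitor of trypsin-like proteases found in surface epithelia, measured 20.97, 56.16 and 20.42 FPKM in the CKO libraries against 9.58, 8.26 and 16.51 FPKM in the FLOX libraries. The groups did not overlap, but CKO replicate 2 lay far above the other 5 libraries. The log2 fold change was 1.32 (SE 0.40, limma adjusted p = 0.115), and 0.86 without CKO replicate 2. Serpinb6d, one of the mouse copies related to Serpinb6a, measured 13.18, 17.99 and 12.42 FPKM in the CKO libraries against 8.25, 3.76 and 10.6 FPKM in the FLOX libraries. The separation was narrow at 12.42 against 10.6 FPKM, and FLOX replicate 3 was the lowest library. The log2 fold change was 0.94 (SE 0.31, limma adjusted p = 0.138), and 0.57 without FLOX replicate 3. Serpinb6b, a further copy, was apart by less (log2 fold change 0.35, SE 0.16).

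The levels of keratinocyte markers in the same libraries are given beside these serpins. All 11 markers of differentiated keratinocytes had higher means in CKO skin, with 1 past the test, Flg2, a median log2 fold change of 0.90 and none at 0. Their summed FPKM was 7518, 11393 and 9443 in the CKO libraries and 5572 to 6659 in the FLOX libraries, so the groups did not overlap. CKO replicate 2 was highest and FLOX replicate 3 lowest in their mean, as they were for Serpinb7, Serpinb12 and Serpinb6d. This order was not particular to keratinocyte genes. It also held for Serping1, Serpinf1, Serpine2 and the mean of the pericyte and smooth muscle markers. FLOX replicate 3 gave the lowest value of 13 of the 32 serpin genes. The part of keratinocyte content in the serpin differences was not tested. Basal keratinocyte markers, 7 of 7 tested and none at 0, summed to 4970 to 5490 FPKM in CKO and 4204 to 4935 FPKM in FLOX skin, with a median of 0.31. The 8 hyperproliferative keratinocyte markers, all tested and none at 0, went the other way in 6, with a median of -0.09, none past the test (1 lower before adjustment) and sums that overlapped, 7235 to 8742 FPKM in CKO and 8191 to 8588 FPKM in FLOX skin.

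**Figure D2:**
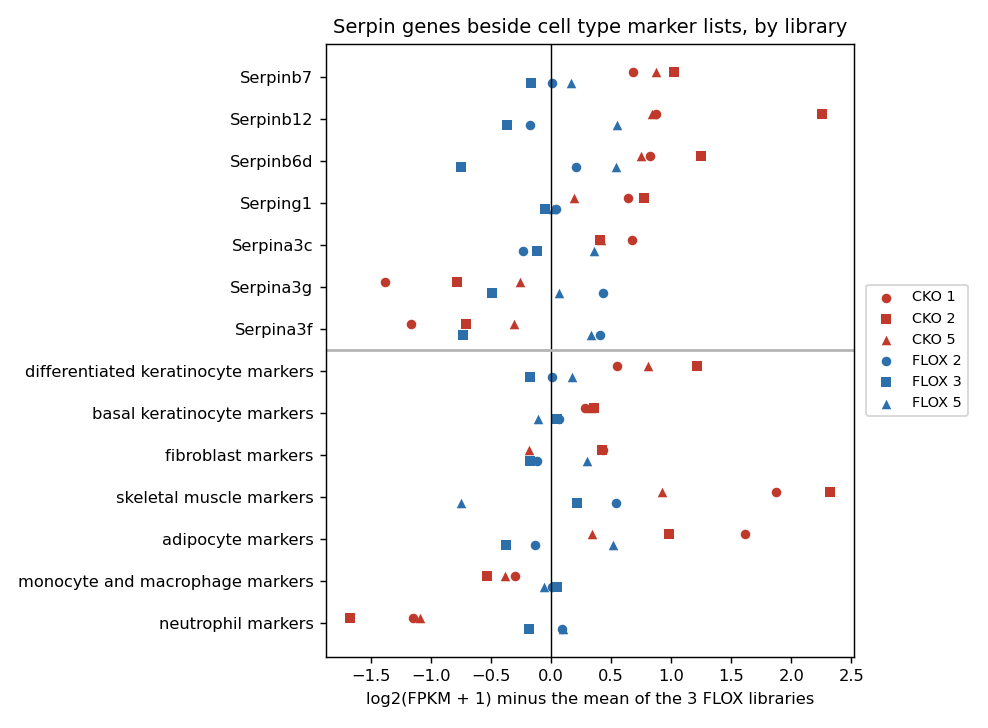
Log2(FPKM + 1) in each library minus the mean of the 3 FLOX libraries, for 7 serpin genes (above the line) and for the mean of tested genes in 7 marker lists (below it). For Serpinb7, Serpinb12, Serpinb6d, Serping1 and the differentiated keratinocyte markers, CKO replicate 2 lies farthest to the right and FLOX replicate 3 farthest to the left.

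Other serpins of stratified epithelium differed less. Serpinb5, or maspin, a non-inhibitory serpin of epithelia, measured 113.84, 149.84 and 164.25 FPKM in the CKO libraries against 125.39, 111.72 and 106.5 FPKM in the FLOX libraries. The lowest CKO library lay below the highest FLOX library, and the log2 fold change was 0.30 (SE 0.14, limma adjusted p = 0.27). It was 0.45 when CKO replicate 1 was left out and 0.19 when CKO replicate 5 was. Serpinb3a, a mouse counterpart of the human squamous cell carcinoma antigens, which inhibit cysteine and serine proteases, measured 66.43, 201.1 and 150.51 FPKM in the CKO libraries against 124.18, 142.29 and 56.24 FPKM in the FLOX libraries. It varied about 3-fold within each group. The log2 fold change of 0.34 (SE 0.46) ran from -0.07 without FLOX replicate 5 to 0.79 without CKO replicate 1. With the replicate number as a block Serpinb3a was at 1.05 (limma adjusted p = 0.0707), a contrast that rests on replicates 2 and 5. Its copy Serpinb3b had a log2 fold change of -0.23 (SE 0.22), and Serpinb13, an inhibitor of cathepsins K and L, -0.48 (SE 0.22) at 0.64 to 2.41 FPKM.

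Within the clade B cluster from Serpinb5 to Serpinb8, whose 12 genes lie next to each other in the RefSeq annotation and were all tested, 9 had positive and 3 negative log2 fold changes, with a median of 0.12. The 2 genes with the largest differences, Serpinb12 and Serpinb7, are not adjacent. The direct neighbours of Serpinb7 were Serpinb11, at 0.26 (SE 0.20, and 0.11 without CKO replicate 2), and Serpinb2, at -0.13 (SE 0.21). Those of Serpinb12 were Serpinb5 and Serpinb13, with opposite signs. In the second clade B cluster, from Serpinb1a to Serpinb6a, 6 of 13 genes in the table were tested, 3 with each sign.

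**Figure D3:**
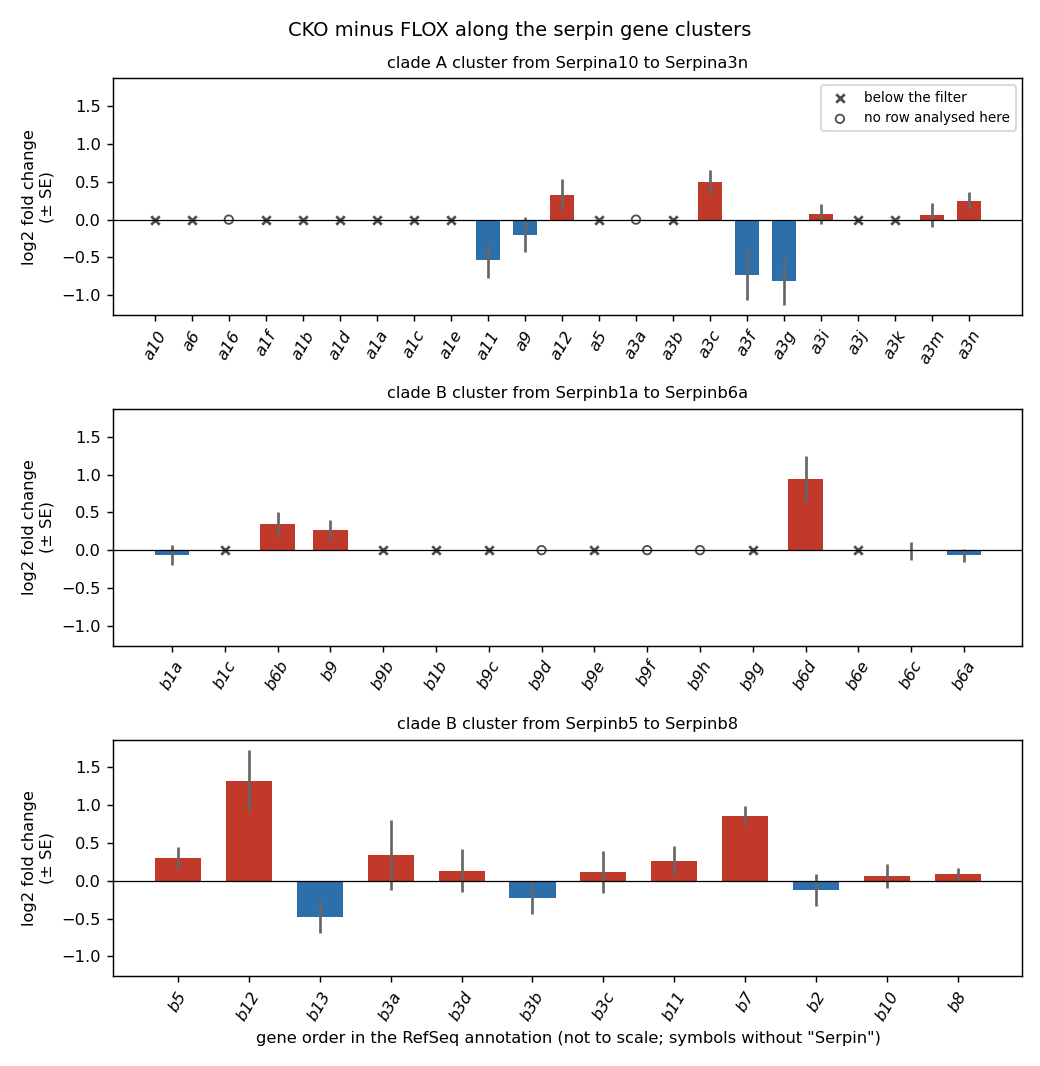
Log2 fold change (CKO minus FLOX, of FPKM + 1, bars ± SE) of serpin genes in the order of the RefSeq annotation, in 3 gene clusters; crosses are genes below the filter and open circles genes not analysed here. Serpinb12, Serpinb7 and Serpinb6d stand out upward, and Serpina3f and Serpina3g, which are adjacent, point downward.

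Serpinb1a, Serpinb9 and Serpinb10, clade B serpins of leukocytes, did not pass the test, and their groups overlapped. The same held for Serpinb8. Serpinb1a, the inhibitor of neutrophil elastase and cathepsin G, measured 89.37, 106.49 and 121.73 FPKM in the CKO libraries against 123.21, 105.76 and 101.63 FPKM in the FLOX libraries. The ranges nearly coincided (log2 fold change -0.06, SE 0.13, limma adjusted p = 0.826), and the sign turned without CKO replicate 1 (0.05) or FLOX replicate 2 (0.02). In the same libraries 11 of 13 neutrophil markers were tested, 7 were lower past the test, none was at 0, and Ly6g, 1 of the 7, reached the filter only through FLOX skin, as did Ngp, which was not called. The summed FPKM of this list was 2724 to 3574 in CKO against 5110 to 6556 in FLOX skin. Of all tested genes 0.6% were called lower. Serpinb9, the intracellular inhibitor of granzyme B, and Serpinb10, a serpin of myeloid cells, had log2 fold changes of 0.27 (SE 0.13) and 0.06 (SE 0.16). Serpinb8, which inhibits furin, had the smallest standard error of the 32 (0.08), with 29.9, 31.75 and 32.68 FPKM in the CKO libraries against 31.4, 27.98 and 29.05 FPKM in the FLOX libraries.

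The Serpina3 genes, mouse copies that correspond to the single human antichymotrypsin gene, did not share a direction. Of the 9 that the table holds, 6 were tested, 4 with positive and 2 with negative log2 fold changes, and none passed limma's test (before adjustment 1 was higher, Serpina3c, and 1 lower, Serpina3g). Their summed FPKM was 339 ± 20.9 in CKO and 329 ± 25.5 in FLOX skin (SD, n = 3 each). Serpina3n, a secreted acute-phase inhibitor of granzyme B and leukocyte elastase, made most of that sum. It measured 291.68, 244.06 and 218.07 FPKM in the CKO libraries against 207.99, 215.92 and 205.49 FPKM in the FLOX libraries. The groups were apart by a narrow margin, CKO replicate 1 was highest, and the log2 fold change was 0.25 (SE 0.11, limma adjusted p = 0.254), or 0.14 without that library. Serpina3c, a kallikrein-binding serpin, measured 13.23, 10.84 and 10.87 FPKM in the CKO libraries against 6.57, 7.19 and 10.4 FPKM in the FLOX libraries. Its groups did not overlap, with FLOX replicate 5 close below the CKO values (log2 fold change 0.50, SE 0.16, limma adjusted p = 0.134).

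Serpina3g and its neighbour Serpina3f had lower means in CKO skin; they were singled out after their values were seen. Serpina3g, or Spi2A, is an intracellular serpin of lymphocytes and macrophages that inhibits lysosomal cathepsins. It measured 25.24, 38.74 and 56.03 FPKM in the CKO libraries against 91.24, 47.62 and 70.47 FPKM in the FLOX libraries, and Serpina3f 7.1, 10.12 and 13.66 against 23.01, 9.89 and 21.92 FPKM. CKO replicate 1 was lowest for both genes and FLOX replicate 2 highest, and in both the groups overlapped through FLOX replicate 3. The log2 fold changes were -0.81 (SE 0.31, limma adjusted p = 0.191) and -0.73 (SE 0.33, limma adjusted p = 0.257). When CKO replicate 1 was left out they were -0.52 and -0.51, and when FLOX replicate 3 was they were -1.06 and -1.10. The 2 genes are close copies, and reads may be shared between them. Monocyte and macrophage markers had lower means in CKO skin in 12 of 12, with 1 past the test and none at 0. Their summed FPKM was 3563 to 4163 in CKO and 4331 to 4624 in FLOX skin. Their library order differed from that of Serpina3g. CKO replicate 1, lowest for Serpina3g, was the highest CKO library in these markers, by sum and by mean log2(FPKM + 1). FLOX replicate 3, the lowest FLOX library for Serpina3g, was lowest of its group by sum and highest by mean. The part of these markers in the Serpina3g difference was not tested.

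Of the remaining clade A genes, Serpina9 and Serpina12 were well expressed. Serpina9 is the counterpart of a human serpin of germinal centre B cells. It measured 72.67, 38.24 and 71.99 FPKM in the CKO libraries against 62.63, 73.91 and 66.2 FPKM in the FLOX libraries. CKO replicate 2 alone lay far below the rest, and the log2 fold change moved from -0.20 (SE 0.23) to 0.10 without it. Serpina12, or vaspin, known as a product of fat cells and skin, had a log2 fold change of 0.33 (SE 0.21), which was 0.12 without FLOX replicate 3 and 0.51 without FLOX replicate 5. The other tested members, Serpina11, Serpina3i, Serpina3m, Serpinb3c, Serpinb3d and Serpinb6c, had log2 fold changes from -0.54 to 0.13 and limma adjusted p from 0.234 to 0.978. Copies within the Serpina3, Serpinb3 and Serpinb6 groups can share reads, so values of single copies are uncertain.

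**Figure D4:**
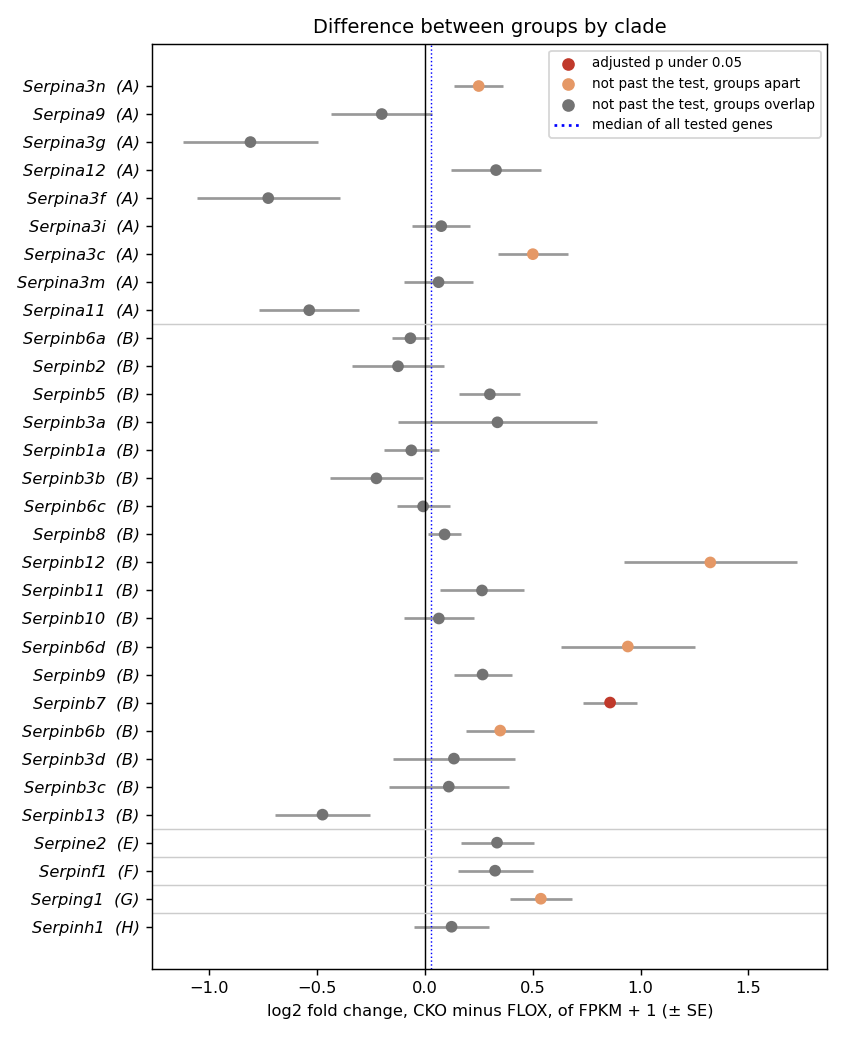
Log2 fold change, CKO minus FLOX, of FPKM + 1 with its standard error for 31 of the 32 tested serpin genes by clade; red marks the gene past the test, orange the 6 others whose groups do not overlap, and grey the genes whose groups overlap. The dotted line is the median of all tested genes at 0.03, and the 4 genes of clades E to H that are shown lie to its right.

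Serpine2, Serpinf1, Serping1 and Serpinh1, of clades E to H, had positive log2 fold changes, with a median of 0.33 over these 4, and none passed limma's test (1, Serping1, did before adjustment). Serping1, the C1 inhibitor that blocks the complement proteases C1r and C1s and plasma kallikrein, was second to Serpinb7 in the family by its adjusted p. It measured 199.18, 218.38 and 145.55 FPKM in the CKO libraries against 130.47, 122.85 and 128.29 FPKM in the FLOX libraries. The groups did not overlap, the FLOX values lay close together, and CKO replicate 5 was the lowest of its group. The means were 188 ± 37.7 and 127 ± 3.92 FPKM (SD, n = 3 each), a ratio of 1.48, with a log2 fold change of 0.54 (SE 0.15, limma adjusted p = 0.0893). Without CKO replicate 5 the log2 fold change was 0.71 and the adjusted p 0.0311. Without CKO replicate 2 they were 0.42 and 0.212. Limma's adjusted p was between 0.0868 and 0.308 in the 14 alternatives that kept CKO replicate 5.

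Serpinf1, or pigment epithelium-derived factor, a non-inhibitory secreted serpin of fibroblasts that restrains vessel growth, measured 121.02, 139.1 and 87.9 FPKM in the CKO libraries against 85.62, 82.88 and 105.38 FPKM in the FLOX libraries. CKO replicate 5 fell inside the FLOX range (log2 fold change 0.33, SE 0.17, limma adjusted p = 0.329). The value was 0.18 when CKO replicate 2 was left out and 0.51 when CKO replicate 5 was. Serpinh1, the collagen chaperone HSP47 of the endoplasmic reticulum, measured 116.11, 116.59 and 84.25 FPKM in the CKO libraries against 85.21, 86.03 and 120.11 FPKM in the FLOX libraries, with 3 high and 3 low libraries split across the groups. The 3 high ones, CKO replicates 1 and 2 and FLOX replicate 5, also had the highest sums of the fibroblast markers and of the adipocyte markers. Serpine2, the protease nexin 1 gene, had a log2 fold change of 0.33 (SE 0.17), and CKO replicate 2 was highest at 74.18 FPKM. Without that library the log2 fold change was 0.14.

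The levels of stromal markers in the same libraries varied too. The 7 fibroblast markers, all tested and none at 0, summed to 3136 to 4729 FPKM in CKO and 3096 to 4290 FPKM in FLOX skin, with CKO replicate 5 among the low libraries. The 10 skeletal muscle markers, none at 0, summed to 589 to 1582 FPKM in CKO and 202 to 459 FPKM in FLOX skin, 1 of them past the test. The 8 adipocyte markers summed to 507 to 1297 FPKM in CKO and 334 to 658 FPKM in FLOX skin, none past the test and none at 0. The part of tissue make-up in the serpin values of clades E to H was not tested. CKO replicate 2 gave the highest value of 14 of the 32 serpin genes, or 43.8%, against 24.4% of all tested genes.

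The proteases and partners that serpins act on were taken from 7 lists of general knowledge. Over the lists 73 genes were tested. No gene was higher past the test and 2 were lower, the basophil proteases Mcpt8 and Prss34. Of all tested genes 0.354% were called higher and 0.6% lower. Before adjustment, 12.6% of all tested genes were higher and 8.94% lower, and 56.1% had a positive log2 fold change. Mcpt8 measured 18.99, 15.32 and 28.19 FPKM in the CKO libraries against 112.91, 78.48 and 105.42 FPKM in the FLOX libraries (log2 fold change -2.22, SE 0.22, limma adjusted p = 0.047). Prss34 measured 0.78, 0.63 and 0.83 against 2.75, 2.13 and 2.04 FPKM (-0.92, SE 0.12), so it reached the filter only through FLOX skin, where it is high, and could have been called in that direction alone. The Mcpt8 call was lost in 7 of 15 alternatives, and the Prss34 call in 9 of those in which it was tested. Neither sign turned. The adjusted p of 0.047 was the lowest of any tested gene, and Serpinb7 shared it. Mcpt8 and Prss34 are in the granule protease list, of which 12 members were tested with a median of 0.12. Its most abundant members, Mcpt4 and Cpa3 of mast cells, had log2 fold changes of 0.16 (SE 0.10) and 0.08 (SE 0.08). The genes of neutrophil serine proteases were barely detected as RNA, and protein was not measured. Elane, the target of Serpinb1a, stayed between 0 and 0.16 FPKM and Ctsg, the cathepsin G gene, between 1.61 and 3.21 FPKM.

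Cathepsins were abundant, and 9 of 12 members of the list of cysteine cathepsins and caspases had negative log2 fold changes, with a median of -0.26. None passed limma's test, and before adjustment 6 were lower and 1 higher at a p under 0.05. Of all tested genes 8.94% were lower and 12.6% higher before adjustment. Ctsb measured 1274 ± 142 FPKM in CKO skin against 1509 ± 134 FPKM in FLOX skin, and Ctss, the cathepsin of antigen-presenting cells, 764 ± 86.0 and 952 ± 86.1 FPKM (SD, n = 3 each). In the plasminogen list 8 of 9 genes were tested, with a median of -0.06 and none past the test (1 lower before adjustment). Its most abundant members were the plasminogen receptor pair S100a10 (log2 fold change -0.19, SE 0.15) and Anxa2 (0.01, SE 0.10). The activator gene Plau, whose product Serpinb2 inhibits, measured 31.22, 49.37 and 53.66 FPKM in the CKO libraries against 70.58, 62.82 and 45.37 FPKM in the FLOX libraries, and the groups overlapped. The receptor gene Plaur, named after its values were seen, was the 1 gene lower before adjustment. It measured 46.4, 36.37 and 47.38 FPKM in the CKO libraries against 94.01, 60.02 and 107.75 FPKM in the FLOX libraries. Its groups did not overlap (log2 fold change -0.96, SE 0.21, limma adjusted p = 0.0648).

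In the list of complement proteases and the contact system 9 of 12 genes were tested, with a median of 0.11 and none past the test. Before adjustment 3 were higher and 1 lower, beside 12.6% and 8.94% of all tested genes. The most abundant were C1qb (log2 fold change -0.25, SE 0.11) and C1qc (-0.10, SE 0.09), subunits that macrophages make. C1s1 and C1ra, the proteases that the C1 inhibitor blocks, were named after their values were seen. C1s1 measured 88.67, 107 and 72.25 FPKM in the CKO libraries against 61.45, 56.54 and 57.02 FPKM in the FLOX libraries (log2 fold change 0.59, SE 0.14, limma adjusted p = 0.0681). Its libraries fell as those of Serping1 did, with CKO replicate 2 highest and CKO replicate 5 lowest of its group. This order within CKO was not particular to the 2 genes. It also held for Serpinf1, Serpine2, C1ra and the means of the endothelial, pericyte and smooth muscle, and skeletal muscle markers. C1ra measured 53.95, 61 and 42.63 FPKM in the CKO libraries against 41.09, 40.63 and 42.83 FPKM in the FLOX libraries, so that CKO replicate 5 overlapped with FLOX.

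Among 23 tested epidermal proteases and inhibitors outside the serpin family the median was 0.11, 14 were positive and none passed. Before adjustment 6 were higher and 3 lower, beside 12.6% and 8.94% of all tested genes. The stefins, small inhibitors of cysteine cathepsins, were most abundant. Stfa3 measured 2887 ± 854 FPKM in CKO skin against 2338 ± 80.1 FPKM in FLOX skin, and Stfa1 1362 ± 177 and 1814 ± 179 FPKM (SD, n = 3 each). In the coagulation list 8 of 12 genes were tested, with a median of -0.10 and none past the test (1 higher before adjustment). F13a1, a transglutaminase of dermal macrophages, had a log2 fold change of 0.35 (SE 0.09) and the tissue factor gene F3 one of -0.06 (SE 0.16). F2, the thrombin gene, stayed at or below 0.06 FPKM.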

How the data were processed

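Messenger RNA of mouse skin, 3 CKO and 3 FLOX libraries, was bound to oligo(dT) beads and read from one end, per the labels' protocols. The submitters' processing notes name HISAT; its version, the counter, the build and the annotation were not given in the sources used here. The deposited values are FPKM per gene, per the file headers, rounded to 2 decimals; the number of reads behind each value is not given.

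The test of CKO minus FLOX was limma 3.58.1 in R 4.3.3 on log2(FPKM + 1), two-sided with an intensity trend. It covered 12994 genes that reached 1 FPKM in 3 or more libraries, with Benjamini-Hochberg adjustment and a threshold of 0.05. The pseudocount of 1 understates changes of low genes. Whether libraries are separate animals is not stated, and p-values then reflect only the spread among these samples, which may be technical. The script was tested on simulated data.

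Members follow the symbol rule; values in every library are given for those past the threshold, those apart with a log2 fold change of at least 0.5, the 8 most abundant and those whose call changed. From each list the called genes and the 2 most abundant are named, and some further listed genes are named beside them. One tested member, kept in the fit and the family counts, is not reported here. Members and lists were chosen with earlier results of these data known. Gene IDs of all 56 matched a RefSeq table of GRCm38.p6, used for gene order and promoter windows. The protein comparison planned for the reactive loops was not made.

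Alternatives were pseudocounts of 0.1 and 5, no filter or a stricter one of 5 FPKM, scaling by median ratios, and quantile normalization. Further ones were the empirical Bayes step with no trend or made robust, a replicate block, and the omission of each library in turn. In the block, CKO replicate 1 and FLOX replicate 3 have no partner of the same number and do not bear on the contrast.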

Additional observations from a re-analysis of the deposited data

How the results depend on the processing

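Of 475 values of the 32 tested serpin genes under 15 alternatives, 437 kept both their direction and their side of the threshold. No serpin gene was called with no filter, quantile normalization, an empirical Bayes step with no trend or made robust, or the replicate block (0 in each), and leaving out single libraries gave 0 to 2 called higher, the 2 being Serpinb7 and Serping1 without CKO replicate 5. None was called lower in any alternative (limma; 1 of the 32 at an unadjusted p under 0.05 in the report's fit). Serpinb7 was past the threshold in 5 of 15 alternatives. Calls over all tested genes, 46 higher and 78 lower in the report's fit, numbered 0 and 1 with no filter, 0 and 0 with quantile normalization, 15 and 17 with no trend, 4 and 6 with the robust step, 117 and 102 with the block, and 0 and 0 without FLOX replicate 2 or 3. The family's median ran from 0.075 with no filter to 0.25 with the filter at 5 FPKM. Listed proteases called higher numbered 1 with the replicate block and 0 to 3 without single libraries. Those called lower numbered 0 with no filter or quantile normalization and 1 with the filter at 5 FPKM or robust fitting. Without CKO replicate 5 they numbered 2, and without each other library 0. The median of clade A ran from -0.087 to 0.10 and that of clade B from 0.030 to 0.34 when libraries were left out; clade B was at 0.34 without CKO replicate 1 and at 0.030 without CKO replicate 2.

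Signs turned in 13 serpin genes. Quantile normalization gave 0.0026 for Serpinb6a, 0.031 for Serpinb6c and -0.0070 for Serpinb3c. The replicate block gave 0.025 for Serpinb1a, -0.029 for Serpinh1, 0.072 for Serpinb3b and 0.10 for Serpinb6c. Leaving out libraries gave ranges of -0.23 to 0.084 for Serpinb2, -0.073 to 0.79 for Serpinb3a, -0.17 to 0.052 for Serpinb1a, -0.42 to 0.014 for Serpinb3b, -0.35 to 0.10 for Serpina9, -0.13 to 0.082 for Serpinb6c, -0.039 to 0.25 for Serpinb10, -0.0057 to 0.20 for Serpina3i, -0.087 to 0.18 for Serpina3m, -0.12 to 0.40 for Serpinb3d and -0.18 to 0.33 for Serpinb3c. The cause was not tested. With no turn of sign, leaving out libraries gave 0.16 to 0.36 for Serpinb9, 0.21 to 0.43 for Serpinb6b, -0.70 to -0.31 for Serpinb13 and -0.74 to -0.30 for Serpina11.

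Replicate numbers 2 and 5 occur in both groups. Deviations from the group means correlated at 0.13 for number 2 and -0.11 for number 5. Pairs with unlike numbers ran from -0.39 to 0.23. With 3 libraries per group, these correlations cannot decide whether equal numbers mark a pairing. With the replicate block limma gave Serpinb7 a log2 fold change of 0.86 and an adjusted p of 0.0591, with 1 residual degree of freedom. CKO replicate 1 and FLOX replicate 3 have no partner of the same number, so this contrast rests on the libraries numbered 2 and 5. The number of reads per value can only be estimated, so no detection floor is given for genes at or near 0.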
